A study of Mus musculus with 38 samples.

Results

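The comparison described here is that of all anle138b-treated with all placebo-treated mice, and it asks whether the hippocampus showed a drug response shared by both genotypes and both ages. The rule took every mouse whose label names anle138b (n = 20) or placebo (n = 18), so that 38 of the 38 mice of the series were used, each a separate animal with 1 RNA library from whole hippocampus. All were C57BL/6 mice, either wild type (WT) or carrying the APPdelta9 transgenes, and the latter are called APPPS1ΔE9 mice below. The pre-plaque group was 6 months old at analysis and had received the chow since 2 months of age, and it held 4 placebo-treated and 4 anle138b-treated WT mice and 4 placebo-treated and 4 anle138b-treated APPPS1ΔE9 mice. The post-plaque group was 10 months old and had received the chow since 6 months of age, and it held 5 placebo-treated and 5 anle138b-treated WT mice and 5 placebo-treated and 7 anle138b-treated APPPS1ΔE9 mice. Each combination of age and genotype is called a stratum. The promoter of the transgenes is not named in the sources used here.

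anle138b is a small diphenyl-pyrazole that binds oligomers of aggregating proteins, among them prion protein, tau and amyloid β, and it is given by mouth and enters the brain. Its known targets are protein assemblies and not a receptor or a transcription factor, so the genes below were grouped by pathway. The hippocampus serves memory and holds granule cells, pyramidal cells, interneurons, glia and vessels, and in APPPS1ΔE9 mice cleavage of mutant APP by γ-secretase leads to amyloid plaques.

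Total counts per mouse lay between 15847985 and 31895808, with a median of 24530658, and the mean was 24984407 in anle138b-treated and 23781612 in placebo-treated mice. The mean difference within strata of 1297133 counts was not larger than the spread between mice (two-sided permutation test within strata, 100000 resamples, p = 0.259). App, which the transgene carries, measured 1510 to 1810 counts scaled to library size (CPM) in WT and 3230 to 4320 CPM in APPPS1ΔE9 mice. For the 4 placebo-treated pre-plaque WT mice 1 label names the transgenic genotype and another WT, they were used as WT, and their App level was 1620 to 1800 CPM. The study describes its mice as male, while 12 of the 38 had Xist, the RNA of the inactive X chromosome, at 1170 to 1440 CPM and Y-linked genes at 1.87 CPM or less in sum. Sequencing lane was nearly tied to treatment: placebo-treated and anle138b-treated mice shared a lane in the pre-plaque WT stratum (lane 4), in the post-plaque WT stratum (lane 4) and in the post-plaque APPPS1ΔE9 stratum (lane 5), but not in the pre-plaque APPPS1ΔE9 stratum. Lane and treatment cannot be told apart there.

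In a model with 1 anle138b effect for all mice and the stratum as covariate, 2 of 18232 tested genes passed an adjusted p of 0.1, which is 0.011% of the genes tested, and both were higher in anle138b-treated mice. They were Gm5855 and Eno1b, both of them near copies of Eno1, the gene of the glycolytic enzyme α-enolase. Both met the filter on low counts only through pre-plaque anle138b-treated mice, since every other mouse had at most 0.257 CPM. Their p-values therefore rest on a selection through the arm in which they were high. An unadjusted p under 0.05 was reached by 644 genes (3.53%), 326 of them higher (1.79%) and 318 lower (1.74%) with anle138b. DESeq2 called 0 genes in the same model, with 608 genes at an unadjusted p under 0.05, and limma-voom called 1 gene, Gm13340, with 1231 genes at that level. The tests used were edgeR's quasi-likelihood test with Benjamini-Hochberg adjustment unless another is named.

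The 38 mice gave narrow intervals for most genes. For the 15014 genes with a mean of at least 1 CPM, the 95% confidence interval reached a median of 0.102 to either side of the log2 fold change. The whole interval lay within a log2 fold change of ±0.25 for 78.1% of these genes, within ±0.5 for 95.5% and within ±1 for 99.2%. Among the 10238 genes of at least 10 CPM it lay within ±0.25 for 92.1%. Below 1 CPM (3218 genes) the median half-width was 0.366, and the interval lay within ±0.5 for 50.1%. The median size of the fitted log2 fold change was 0.0308 among genes of at least 1 CPM. Smaller shared changes than these intervals were not detectable at this depth and number of mice. As the intervals are not adjusted for the number of genes tested, larger shared changes could miss the adjusted threshold too.

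**Figure D1:**
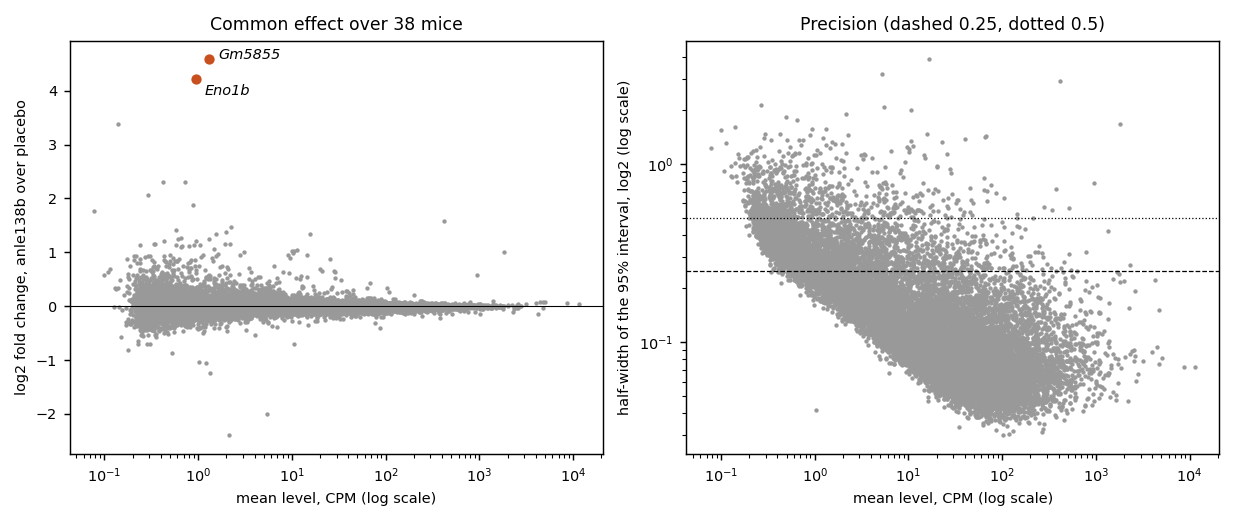
Left, log2 fold change of anle138b over placebo against mean level (CPM, log scale) for the 18232 tested genes in the fit over 38 mice, with the 2 called genes in orange. Right, half-width of the 95% confidence interval of each gene (log2 units, log scale) against mean level, with lines at 0.25 and 0.5. The called genes sit at a low mean level and far above the other genes, whose intervals narrow with level.

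Gm5855 is annotated as a processed pseudogene, an intron-less copy, on chromosome 3 (chr3:130929366-130930670, minus strand, GRCm38), and Eno1b is a protein-coding copy on another chromosome. Their parent Eno1 lies on chromosome 4 (chr4:150236721-150248879, plus strand). Over the 1302 bases of the Eno1 coding sequence, Eno1b differed at 8 bases and shared a run of 725 identical bases, while Gm5855 differed at 47 of 1301 aligned bases and its longest identical run was 117 bases. Reads from the long identical runs cannot be assigned to 1 of the genes by sequence, so the counts of all 3 are uncertain. The 60-base stretch in which Gm5855 and Eno1 differ most is shown because only reads over such bases tell the pseudogene from its parent. In Eno1 it is part of exon 9 (coding bases 988 to 1047), and the capitals mark the 6 bases that differ.
Eno1, chr4:150247573-150247632, plus strand: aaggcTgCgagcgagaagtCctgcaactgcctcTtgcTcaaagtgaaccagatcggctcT
Gm5855, chr3:130929625-130929684, minus strand: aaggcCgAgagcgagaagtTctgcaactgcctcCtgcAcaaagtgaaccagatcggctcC
Counted from 1 at the 5′ end of the Eno1 stretch, with the Eno1 base first, the differences were T6C, C8A, C20T, T34C, T38A and T60C. Both sequences are those of the GRCm38 reference with GENCODE M21 annotation, not of these mice.

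The higher level of Gm5855 came from some of the pre-plaque anle138b-treated mice. In WT mice of that group the 4 anle138b-treated animals had 6.69, 17.9, 7.73 and 0.113 CPM (mice 33, 39, 41 and 83) and the 4 placebo-treated animals 0.04, 0.124, 0.143 and 0.0455 CPM. In APPPS1ΔE9 mice the 4 anle138b-treated animals had 8.39, 0.218, 0.0367 and 9.06 CPM (mice 15, 16, 27 and 84) and the placebo-treated animals 0.246, 0.0396, 0.17 and 0.136 CPM. So 5 of the 8 anle138b-treated mice of this group were above every other mouse of the series, and the other 3 lay among the placebo-treated mice. All 22 post-plaque mice were at 0.167 CPM or less. The fitted common log2 fold change of Gm5855 was 4.58 (SE 0.774, 95% confidence interval 3.01 to 6.15, adjusted p = 0.0177), from a mean of 0.0811 CPM in placebo-treated and 2.53 CPM in anle138b-treated mice. Its fold change within each stratum was 6.40 in pre-plaque WT, 4.87 in pre-plaque APPPS1ΔE9, −0.09 in post-plaque WT and −0.33 in post-plaque APPPS1ΔE9 mice on the log2 scale, and stratum values are given in this order below.

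Eno1b was high in the same 5 mice as Gm5855. The pre-plaque anle138b-treated WT mice had 8.12, 2.16, 7.09 and 0.113 CPM and the APPPS1ΔE9 mice 9.15, 0.124, 0.147 and 8.41 CPM, in the same order of mice. The 8 placebo-treated mice of that age ranged from 0 to 0.17 CPM, and the post-plaque mice reached at most 0.257 CPM. The common log2 fold change of Eno1b was 4.21 (SE 0.772, interval 2.65 to 5.78, adjusted p = 0.0354), with stratum values of 6.05, 5.54, −0.79 and 0.88. With 1 mouse left out at a time Gm5855 always passed (adjusted p at most 0.0779), while Eno1b did not pass without mouse 15, 84, 17, 71, 74, 75, 30, 37 or 77 (adjusted p at most 0.124). In these fits too, both genes entered the test only through anle138b-treated mice, so they are no independent check. The sign of Gm5855 held in 2 of 4 strata and that of Eno1b in 3 of 4. The difference in effect between the cohorts had an unadjusted p of 0.0211 for Gm5855 and 0.00802 for Eno1b and an adjusted p of 0.99996 for both. When only the 22 post-plaque mice were fitted, both genes fell below the filter on low counts.

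The parent gene Eno1 was at a lower level in the same mice. In pre-plaque WT mice it measured 117, 144, 115 and 173 CPM with anle138b (mice 33, 39, 41 and 83) against 169 to 192 CPM with placebo. The APPPS1ΔE9 mice of that age had 140, 178, 164 and 130 CPM (mice 15, 16, 27 and 84) against 182 to 199 CPM with placebo. The 3 anle138b-treated mice with Gm5855 near the placebo level (83, 16 and 27) had the highest Eno1 values of the anle138b-treated mice in their stratum. Among post-plaque WT mice Eno1 ranged from 125 to 202 CPM with anle138b and from 138 to 174 CPM with placebo. The common log2 fold change of Eno1 was −0.14 (interval −0.28 to 0.00, unadjusted p = 0.0561), and it did not pass the adjusted threshold.

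A few further genes, 3 on chromosome 4 and 1 on chromosome 13, followed some of the same mice, and apart from Zfp990 they were singled out after their values had been seen. Zfp990, a zinc finger gene at chr4:145510759-145539188, followed Gm5855 and Eno1b in rank among the genes higher with anle138b, with a common log2 fold change of 3.38 (interval 1.77 to 4.998, adjusted p = 0.881). It measured 1.3, 0.114, 1.38 and 0 CPM in the pre-plaque anle138b-treated WT mice 33, 39, 41 and 83. In the APPPS1ΔE9 mice 15, 16, 27 and 84 it measured 1.33, 0.0311, 0 and 0.862 CPM, and all other mice were at 0.137 CPM or less. Mice 33, 41, 15 and 84 thus stood apart, while mouse 39, which had the highest Gm5855 level, did not. Like Gm5855 and Eno1b, Zfp990 met the filter on low counts only through these anle138b-treated mice. Its rank, interval and p-value therefore rest on the same selection.

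Casp9, which encodes the initiator protease of mitochondrial apoptosis (chr4:141793612-141815976), measured 60.1, 32.8, 57.6 and 38.7 CPM in the WT mice and 60, 34.2, 34.8 and 66.4 CPM in the APPPS1ΔE9 mice in that order, and 33.2 to 40.6 CPM in every mouse outside these groups. Masp2, a protease of the lectin pathway of complement, measured 2.59, 0.284, 1.97 and 0.528 CPM in the WT and 2.24, 0.778, 0.624 and 1.87 CPM in the APPPS1ΔE9 mice, against 0.289 to 0.739 CPM with placebo at that age. Akr1e1, an aldo-keto reductase gene on chromosome 13, went the other way with 15.9, 26.3, 17.5 and 33.9 CPM in WT and 16.9, 30.5, 33.3 and 17.1 CPM in APPPS1ΔE9 mice. Mice 33, 41, 15 and 84 were high in Casp9 and Masp2 and low in Akr1e1. In the common fit the unadjusted p was 0.0265 for Casp9, 0.0265 for Masp2 and 0.0809 for Akr1e1, and none passed after adjustment.

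**Figure D2:**
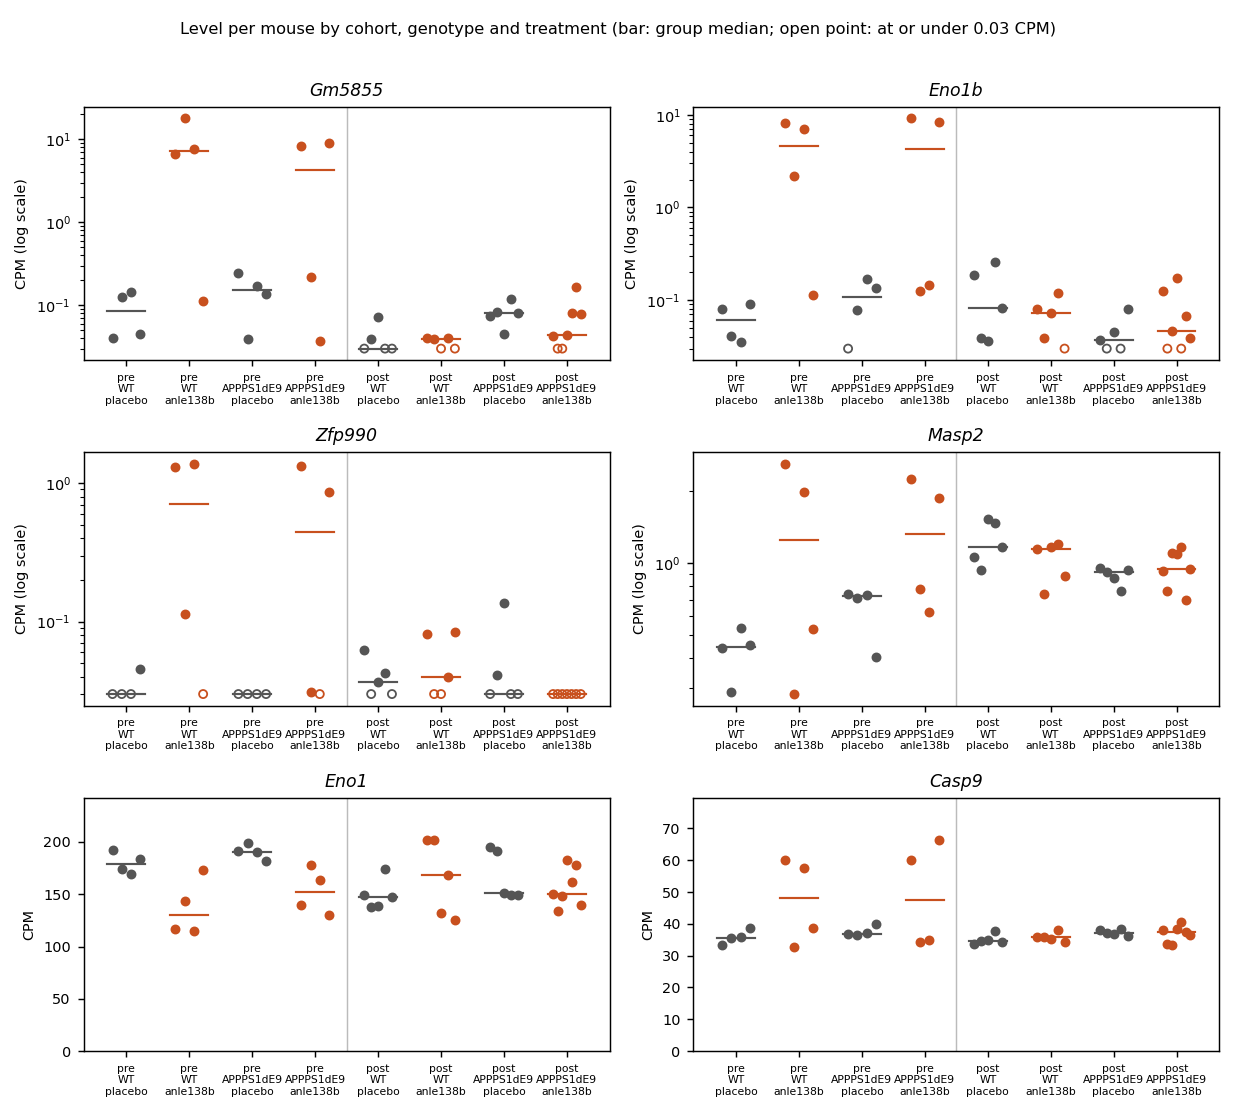
Level in each of the 38 mice (CPM; log scale for Gm5855, Eno1b, Zfp990 and Masp2, linear from 0 for Eno1 and Casp9) by cohort, genotype and treatment, with placebo in grey, anle138b in orange and a bar at the group median; open points are at or close to 0. In the pre-plaque group, the anle138b-treated mice split into high and low ones for Gm5855, while all 22 post-plaque mice are at 0.167 CPM or less.

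Where these genes lie was asked over all tested genes. In the pre-plaque group 44 genes had an unadjusted p under 0.05 for anle138b in both genotypes, of which 21 had the same direction (9 higher, 12 lower) and 23 opposite directions. Of the 21, 5 (23.8%) were on chromosome 4, which holds 1091 (5.98%) of the tested genes. These 5 were Casp9, Zfp990, Miip, Masp2 and Eno1, and they lay between 141.8 and 150.2 Mb, an interval with 73 tested genes (0.4%). Among post-plaque mice 13 genes reached that level in both genotypes, of which 1 had the same direction, not on chromosome 4, and 12 the opposite. The list was seen before the interval was drawn, so these shares are a description.

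Lane, tissue and sex were set beside Gm5855. The 4 placebo-treated pre-plaque WT mice were in lane 4 with anle138b-treated mice 33 and 39, so that within lane 4 Gm5855 was 6.69 and 17.9 CPM against at most 0.143 CPM. Within lane 6, mice 15 and 84 were high and mice 16 and 27 low. Choroid plexus markers, which show how much of the ventricle lining came with the tissue, summed to 11900, 9960, 10300 and 615 CPM in mice 33, 39, 41 and 83 and to 9520, 8710, 10800 and 473 CPM in mice 15, 16, 27 and 84. Mice 33, 39, 41 and 15 were high in both Gm5855 and this sum and mouse 83 low in both, while mouse 84 was high in Gm5855 with a low sum and mice 16 and 27 were low with high sums. With Y-linked expression, or with the summed choroid plexus level, as a further covariate, Gm5855 and Eno1b were again the called genes. The source and parentage of the individual mice are not given in the sources used here, and their part in the result was not tested. The part of choroid plexus content was not tested beyond that covariate.

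The rest of the 10 highest-ranked and 10 lowest-ranked genes did not pass the adjusted threshold (adjusted p of 0.881 for Zfp990 and 0.99983 for the others). Higher with anle138b were Zfp990, Gm45053, Knl1, Apmap, Aldoart1, Gm13340, Gm7809 and E2f7. Lower were Gm31105, Pisd-ps2, Tcof1, B830042I05Rik, Pisd-ps1, Taf1c, Rhot2, Slc12a9, Pik3cd and Col4a2. A stretch of at least 300 bases with 90% or more identity to another tested gene was found in 6 of the 10 higher genes and in 2 of the 10 lower ones. Beside the Eno1 copies these were Zfp990 (90.7% identical to Zfp991 over 1708 bases), Aldoart1 (92.7% to Aldoa), Gm13340 (97.6% to the mitochondrial mt-Co1), Gm7809 (96.8% to Tpm4), Pisd-ps1 (94.1% to Pisd) and Pisd-ps2 (92.5% to Zfp729a). How the counting split reads between such copies is uncertain.

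The same sign of the log2 fold change in all 4 strata was found for 2084 of the 18232 genes (11.4%). Of the 20 ranked genes 14 had it, and as the rank itself favours such genes, nothing is read from that count. Gm45053, a transcript within Retsat on the opposite strand (chr6:72603004-72605502, minus strand), was among these 14. It ranged from 1.10 to 1.96 CPM (median 1.48) in the 20 anle138b-treated and from 0.739 to 1.51 CPM (median 1.24) in the 18 placebo-treated mice, so the groups overlapped. Its common log2 fold change was 0.30 (interval 0.15 to 0.46, unadjusted p = 3.07e-04), and the stratum values were 0.33, 0.40, 0.29 and 0.24. Since the strandedness of the counting is not given, its reads and those of Retsat cannot be told apart.

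Apmap, which encodes a membrane protein of adipocytes that also binds γ-secretase and lowers amyloid β production, had a small shift of 0.08 (interval 0.04 to 0.13, unadjusted p = 7.67e-04). It ranged from 60 to 85 CPM with a median of 67.1 in anle138b-treated and from 56.1 to 79.6 CPM with a median of 63 in placebo-treated mice. In pre-plaque APPPS1ΔE9 mice Apmap measured 74.3 to 78.8 CPM in the 4 anle138b-treated and 66.1 to 70.8 CPM in the 4 placebo-treated animals. Lane and treatment cannot be told apart in that stratum, and in the other strata the groups overlapped. How many of all tested genes separate so with 4 against 4 mice was not counted, so nothing is read from these ranges.

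Knl1, a kinetochore scaffold of dividing cells, ranged from 0.0811 to 1.99 CPM (median 0.313) with anle138b and from 0.0567 to 0.32 CPM (median 0.208) with placebo. E2f7, a repressor of cell cycle genes, ranged from 0.0811 to 2.33 and from 0.0624 to 0.66 CPM. Both highest values were those of mouse 39, which also had 20.4 CPM of the testis aldolase gene Aldoart1 and 11.9 CPM of Gm7809. Knl1 and Aldoart1 (at most 0.249 CPM with placebo) met the filter on low counts only through anle138b-treated mice. The ranks and fold changes of these genes rest on that selection. The markers of neurogenic cells of the dentate gyrus summed to 125 CPM in this mouse and to 52.5 to 85.9 CPM in all others. Without mouse 39 the log2 fold change of Aldoart1 was 0.91 instead of 2.31, that of Gm7809 0.65 instead of 2.303, that of Knl1 0.70 instead of 0.93 and that of E2f7 0.62 instead of 0.93.

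Among the lower genes, Gm31105, an antisense transcript at the start of Gab1, ranged from 0 to 0.365 CPM with anle138b and from 0.16 to 0.681 CPM with placebo, with a log2 fold change of −0.70 (interval −1.11 to −0.30). Gm31105 met the filter on low counts only through placebo-treated mice, the arm in which it was high, so its rank rests on that selection. Tcof1 and Taf1c act in transcription of ribosomal RNA genes, and their log2 fold changes were −0.11 (interval −0.17 to −0.04) and −0.18 (interval −0.28 to −0.07). Col4a2, a collagen chain of basement membranes, was at −0.21 (interval −0.34 to −0.08). Rhot2, which couples mitochondria to transport motors, was at −0.09 (interval −0.14 to −0.03), and Pik3cd, a catalytic subunit of phosphoinositide 3-kinase, at −0.11 (interval −0.18 to −0.04). Each of these 6 was negative in all 4 strata, but none passed the adjusted threshold. For Pik3cd the stratum values were −0.07, −0.32, −0.04 and −0.05, so that pre-plaque APPPS1ΔE9 mice had the most negative one. Pisd-ps1 and Pisd-ps2, pseudogenes of a phospholipid-synthesis enzyme, were both at −0.61 in that stratum, while their common values were −0.18 and −0.19.

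**Figure D3:**
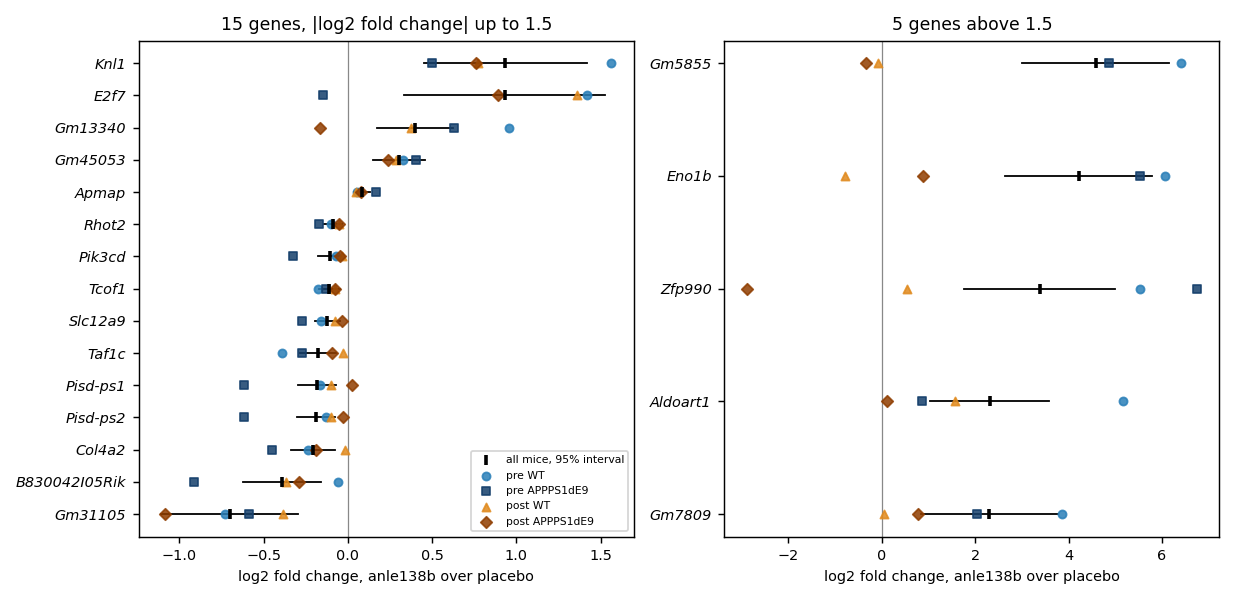
Log2 fold change of anle138b over placebo for the 10 genes with the smallest p among those higher and the 10 among those lower, in all mice (black bar with its 95% confidence interval) and in each of the 4 strata (coloured symbols). Gm45053 has all 4 strata inside its interval, while Gm5855 is near 6.40 and 4.87 in pre-plaque and at −0.09 and −0.33 in post-plaque mice.

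How far the 4 strata shared a response was also measured directly. For the difference of the anle138b effect between the strata, 0 genes (0%) passed with edgeR, with 829 genes at an unadjusted p under 0.05 and a smallest adjusted p of 0.147, while DESeq2 called 18 genes. Between genotypes 0 genes passed (648 at the unadjusted level, DESeq2 0), and between cohorts 0 genes passed (616 at the unadjusted level, DESeq2 5). Within a stratum of the same fit, 50 genes (0.274%) passed in pre-plaque WT mice, all of them higher with anle138b, and 40 (0.219%) in pre-plaque APPPS1ΔE9 mice, 6 higher and 34 lower. In post-plaque WT mice 1 gene (0.00548%) passed, which was lower, and in post-plaque APPPS1ΔE9 mice 0 genes (0%) passed, with 478 at the unadjusted level.

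Across the 15014 genes of at least 1 CPM, the log2 fold changes of the strata, which share no mice, were compared as a description. Pearson's r was 0.08 between the 2 genotypes of the pre-plaque group and −0.31 between the 2 genotypes of the post-plaque group. Within WT mice it was −0.24 between the cohorts, and within APPPS1ΔE9 mice 0.21. The remaining pairs had r = 0.07 (pre-plaque WT and post-plaque APPPS1ΔE9) and r = 0.06 (pre-plaque APPPS1ΔE9 and post-plaque WT). Spearman's rho for the 6 pairs lay between −0.34 and 0.15, and it was −0.03 between the cohorts in WT and 0 in APPPS1ΔE9 mice, so these 2 relations were not found by rank. The points share the dissection and lane differences of their libraries, and genes are not independent replicates.

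The genes with the smallest p for a difference between strata were Gm13341, Pomc, Pisd-ps1, Prl and Man2b1, each at an adjusted p of 0.147. Prl and Pomc encode pituitary hormones. Prl measured 338, 15.1, 1.42, 8.78 and 0.166 CPM in the 5 placebo-treated post-plaque WT mice, 241, 0.114, 0.246 and 0.679 CPM in the 4 anle138b-treated pre-plaque WT mice, and 5.47 CPM or less elsewhere. The 5 anle138b-treated post-plaque WT mice had 0 to 0.253 CPM, so 4 of the 5 placebo-treated mice of that stratum were above all of them, while in anle138b-treated pre-plaque WT mice only 1 value was high. The markers of hypothalamus and pituitary summed to 2.96 to 338 CPM in anle138b-treated and 2.77 to 765 CPM in placebo-treated mice. Prl and Pomc are themselves among these markers, so the sum is no separate measure beside them. The part of such tissue in these values was not tested. Man2b1, lysosomal α-mannosidase, measured 48.6 to 55.6 CPM in anle138b-treated and 66.6 to 71.3 CPM in placebo-treated pre-plaque APPPS1ΔE9 mice, which did not overlap. In the other strata its log2 fold changes were −0.08, 0.00 and 0.03.

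For the difference between genotypes the first genes were Gm16754, Plcxd1 and Shc4 (adjusted p = 0.984 for each). Gm16754 had log2 fold changes of 0.71 and 0.29 in pre-plaque and post-plaque WT and −0.35 and −0.14 in pre-plaque and post-plaque APPPS1ΔE9 mice. For the difference between cohorts the first genes were 4731419I09Rik, Pisd-ps1 and Man2b1 (adjusted p = 0.99996 for each). 4731419I09Rik was at −1.13 and −1.08 in the pre-plaque strata and at 0.09 in both post-plaque strata.

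Genes of proteins that anle138b is known to act on were measured without a detectable shared change. App was at a log2 fold change of 0.01 (interval −0.06 to 0.07), and Prnp, which encodes prion protein, at 0.01 (−0.06 to 0.08). Prnp, like App, differed by genotype, with 919 to 1230 CPM in WT and 2240 to 2930 CPM in APPPS1ΔE9 mice. The source of the added Prnp counts was not tested. The tau gene Mapt was at −0.01 (−0.06 to 0.03). Of the 14 genes listed for anle138b-bound proteins and APP processing 0 passed and 0 reached the unadjusted level, and the smallest p was that of the γ-secretase subunit Ncstn (0.04, unadjusted p = 0.0926). In pre-plaque APPPS1ΔE9 mice App measured 3270 to 4000 CPM with anle138b and 3850 to 4320 CPM with placebo, and in post-plaque ones 3520 to 4150 against 3230 to 3710 CPM, so the groups overlapped at both ages.

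Genes that respond to foreign compounds were examined because anle138b is a drug taken daily. Of the 10 listed genes of the aryl hydrocarbon (Ah) receptor pathway 8 were tested, 0 passed, and 1 reached the unadjusted level. This was Cyp1a1, a cytochrome P450 that is the classic target of this receptor. It measured 0.46, 0.455, 0.787 and 0.113 CPM in anle138b-treated pre-plaque WT mice (33, 39, 41 and 83) and 0.531, 0.902, 0.294 and 0.0359 CPM in APPPS1ΔE9 mice (15, 16, 27 and 84), against 0.04 to 0.205 CPM in the 8 placebo-treated mice of that age. So 6 of these 8 mice were above every placebo-treated mouse of their age, and mice 83 and 84 were not. In post-plaque mice it ranged from 0 to 0.404 CPM. The common log2 fold change of Cyp1a1 was 0.85 (interval 0.15 to 1.56, unadjusted p = 0.0195, adjusted p = 0.99983), and the stratum values were 1.83, 1.71, −0.11 and 0.05. No placebo-treated mouse of either age was above 0.281 CPM, and Cyp1a1 met the filter on low counts only through anle138b-treated mice. Its p-value and its place in the count of this list therefore rest on a selection through that arm. The 6 mice with the high values were also the 6 with a choroid plexus marker sum of 8710 CPM or more among the anle138b-treated mice of that age, and the part of this in the result was not tested. The marker sum of the placebo-treated mice of that age was 539 to 11800 CPM in WT and 268 to 9630 CPM in APPPS1ΔE9 mice.

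The other Ah receptor genes gave little shift, with Nqo1 at 0.20, Tiparp at 0.03, Ahrr at −0.02 and the receptor Ahr itself at −0.03. Of 18 genes of drug transport and of CAR and PXR, nuclear receptors for foreign compounds, 13 were tested, of which 2 were higher and 11 lower, with a median of −0.024 and 0 past the threshold, and Por, which donates electrons to cytochrome P450, had the smallest p (−0.07, unadjusted p = 0.0365). The 16 NRF2 targets had a median of 0.005, the 16 heat shock genes 0.011 and the 18 genes of the unfolded protein response 0.041. Over all 18232 tested genes the median was −0.001, with 8987 higher and 9245 lower.

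In the circadian clock list 14 of 18 genes were lower, with a median of −0.032, and 0 passed the adjusted threshold, while Per2 and Per1 reached an unadjusted p under 0.05. Per2, a repressor of the clock, was negative in every stratum. In pre-plaque mice it measured 32.5 to 35.1 CPM with anle138b against 35.5 to 40.7 CPM with placebo in WT and 30.6 to 34 against 37.3 to 49.4 CPM in APPPS1ΔE9 mice, so the groups did not overlap in either genotype. In post-plaque mice they did overlap, with 44.3 to 59.3 against 50.4 to 63.2 CPM in WT and 46.8 to 67.8 against 46.1 to 82.2 CPM in APPPS1ΔE9 mice. The common log2 fold change of Per2 was −0.18 (interval −0.30 to −0.06, unadjusted p = 0.0038, adjusted p = 0.99983), and that of Per1 −0.14 (interval −0.28 to −0.01, unadjusted p = 0.0362). The time of day at which each mouse was analyzed is not given in the sources used here.

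**Figure D4:**
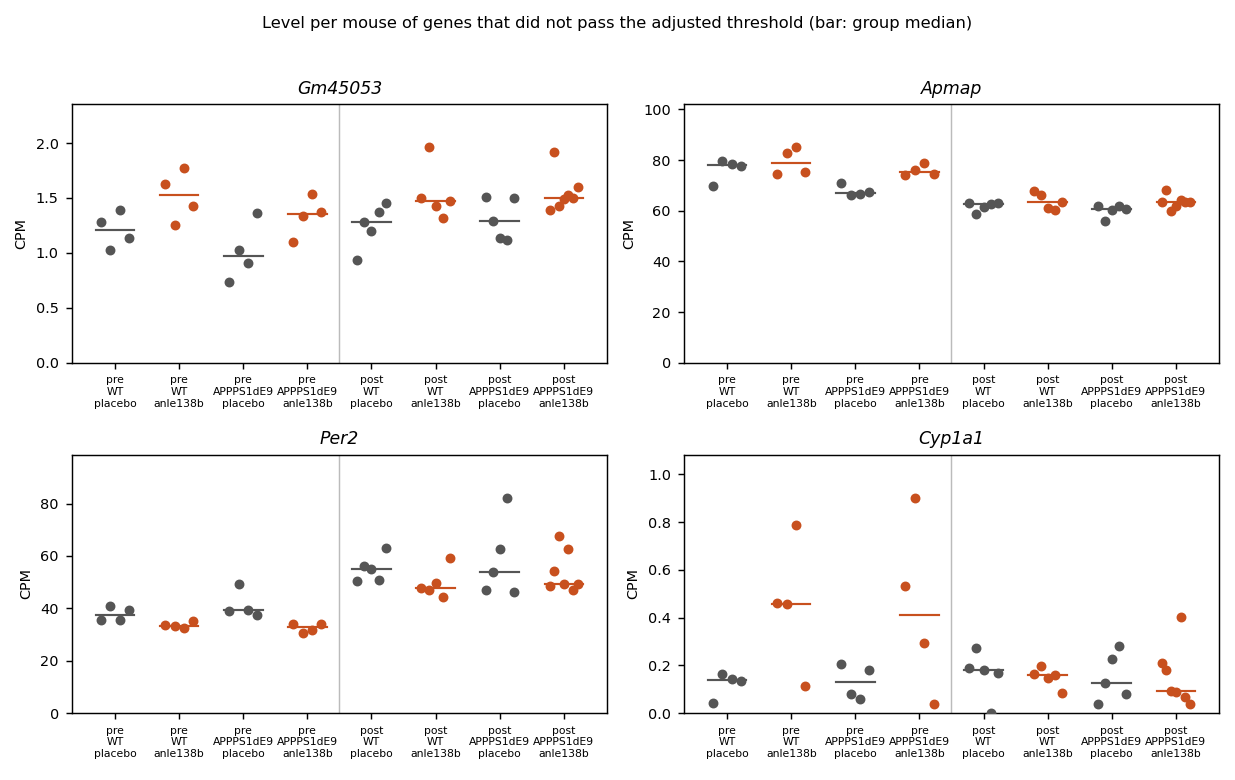
Level in each mouse (CPM, linear from 0) of Gm45053, Apmap, Per2 and Cyp1a1, none of which passed the adjusted threshold, by cohort, genotype and treatment, with placebo in grey, anle138b in orange and a bar at the group median. Per2 separates by treatment in pre-plaque but not in post-plaque mice, and how many of all tested genes do so was not counted. Cyp1a1 reaches 0.902 CPM in pre-plaque but 0.404 CPM in post-plaque mice.

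Genes of neuronal activity and synapses were grouped next. Of 18 immediate early genes, which are transcribed within minutes of neuronal firing, 17 were lower with anle138b and 1 higher, with a median log2 fold change of −0.128 and 0 at the unadjusted level. Fos was at −0.39 (interval −0.95 to 0.18), Arc at −0.20 and Ier2 at −0.21. The median within strata was −0.051, −0.094, 0.021 and −0.208, and 4 of the 18 had 1 sign in all 4. The median half-width of their intervals was 0.275, against 0.127 for all genes. Summed over the list, they measured 499 to 847 CPM (median 637) with anle138b and 551 to 1140 CPM (median 617) with placebo. The group median of this sum was higher with anle138b in pre-plaque APPPS1ΔE9 and post-plaque WT mice and lower in the other strata. Genes of 1 such response are not independent of each other, so nothing is read from the count of 17. The 26 synaptic plasticity genes had a median of −0.017 (9 higher, 17 lower) and the 15 GABA synapse genes 0.002. Of 10 interneuron neuropeptides 9 were lower, with a median of −0.069 but stratum medians from −0.29 to 0.205, and the 9 tested of 11 neurotrophins and receptors had a median of −0.019.

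Mitochondrial and proteasome genes leaned in the positive direction by small amounts. Of 55 nuclear-encoded subunits of the respiratory chain 46 were higher and 9 lower, with a median of 0.019, and 2 reached the unadjusted level, Sdhc (0.06, interval 0.01 to 0.11) and Uqcrb (0.08, interval 0.01 to 0.14). The stratum medians were −0.031, 0.139, 0.055 and −0.053, so that the sign differed between them. The 7 of 13 mitochondrially encoded genes that were tested were all positive in the common fit, with a median of 0.065 and mt-Nd1 at 0.08. Their stratum medians were 0.012, 0.221, 0.015 and 0.02, the highest being that of pre-plaque APPPS1ΔE9 mice, where lane and treatment cannot be told apart. Of 31 proteasome subunits, which form the protease that degrades ubiquitin-tagged proteins, 29 were higher with a median of 0.035, and the stratum medians were 0.049, 0.064, 0.037 and −0.011. Psma6 was at 0.09 (interval 0.00 to 0.17) and Psmb4 at 0.07 (interval 0.00 to 0.13). For 8 of the 31 the sign was the same in all 4 strata, and subunits of 1 complex are not independent of each other. None of these genes passed the adjusted threshold.

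Glial and lipid genes did not share a direction across strata. The 21 plaque-associated microglia genes had a median of −0.032, with stratum medians of 0.013, −0.166, −0.063 and 0.068, and Ccl3, a chemokine, was at −0.39 (unadjusted p = 0.055). The 14 homeostatic microglia genes had a median of −0.011 (3 higher, 11 lower). For the 17 genes of complement, Fc and Toll-like receptors the median was −0.03, and −0.264 in pre-plaque and 0.072 in post-plaque APPPS1ΔE9 mice. The 20 interferon-stimulated genes were at −0.06, the 12 antigen presentation genes at 0.005 and the 23 tested reactive astrocyte genes at −0.009. Of 23 cholesterol synthesis genes 20 were higher with a median of 0.061, and the stratum medians were 0.025, 0.108, 0.258 and −0.065. Sc5d, which catalyzes a late step of that pathway, was at 0.11, with 0.28 in post-plaque WT and −0.13 in post-plaque APPPS1ΔE9 mice. The lists of lipid transport, lysosome, autophagy and glucocorticoid-responsive genes had medians of −0.025, −0.012, 0.001 and −0.023. None of the 26 pathway lists held a gene past the threshold.

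**Figure D5:**
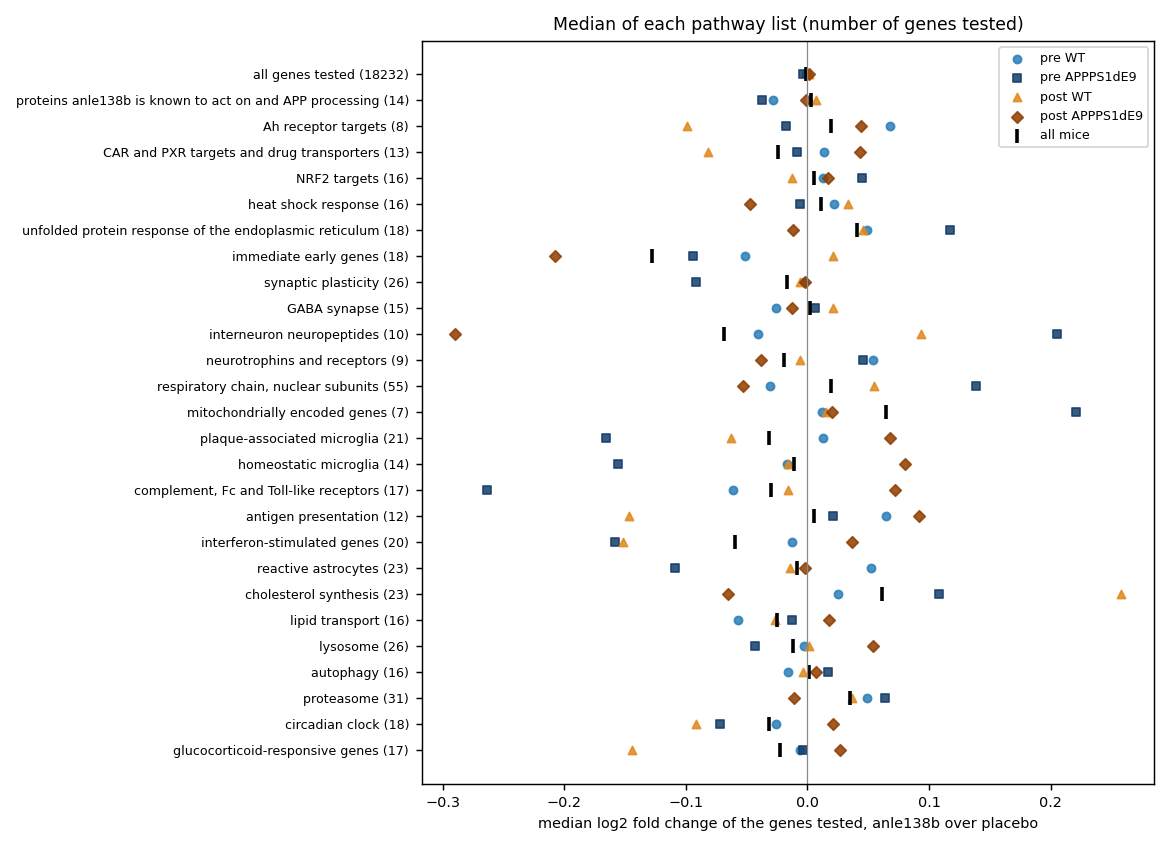
Median log2 fold change of anle138b over placebo over the tested genes of each of 26 pathway lists and of all genes, in all mice (black bar) and in the 4 strata (coloured symbols), with the number of genes tested in parentheses. In most lists the strata lie on both sides of 0, while the median over all mice stays between −0.128 and 0.065.

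Markers of cell types were compared in the same way, and in whole tissue fewer cells of a type and less RNA per cell cannot be told apart. The 6 microglia markers summed to 231 to 453 CPM (median 293) in anle138b-treated and 234 to 416 CPM (median 303) in placebo-treated mice. The markers of dentate granule cells summed to 378 to 874 CPM (median 574) and 307 to 940 CPM (median 552). All 13 choroid plexus markers were positive, with a median log2 fold change of 0.754 and a median interval half-width of 1.129, and 0 reached the unadjusted level. The stratum medians were 0.239, 1.188, −0.324 and 2.317, so the sign was opposite in post-plaque WT mice. Their sum spanned 176 to 11900 CPM (median 471) in anle138b-treated and 182 to 11800 CPM (median 418) in placebo-treated mice. In post-plaque APPPS1ΔE9 mice the sum was 176 to 6260 CPM (median 306) with anle138b and 182 to 383 CPM (median 328) with placebo. The value of 2.317 there does not describe the median mouse. The 5 tested blood genes were positive with a median of 0.187, and their sum was 28 to 172 CPM against 24 to 85.4 CPM. Of the 19 marker lists 0 held a gene past the adjusted threshold, while Avp of the hypothalamus and pituitary list (0.91) and Top2a of the neurogenic cell list (0.95) reached the unadjusted level.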

How the data were processed

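RNA was isolated with TRIZOL from whole hippocampus of 38 mice and prepared as TruSeq mRNA libraries. The authors aligned reads with STAR to the mouse genome (mm10), assigned them to genes using HTSeq (intersection-nonempty) and deposited unnormalized read counts of 48709 genes per mouse. The annotation release and strandedness are not given in the sources used here. The symbols of 48349 genes came from GENCODE M21 (GRCm38, the build of mm10). The authors' own test was DESeq2.

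Groups were taken from titles and labels. Genes passing filterByExpr of edgeR (minimum count 10, minimum total count 15, 8 groups) were scaled by TMM, and edgeR's quasi-likelihood test (robust fit) was applied with treatment and the 4-level stratum as terms. Benjamini-Hochberg adjusted p under 0.1 was the threshold. Differences between strata, genotypes and cohorts were contrasts of the 8 group means. CPM are TMM-scaled. Copies of genes were searched with BLAST+ 2.17.0 (300 bases, 90% identity). The tools were limma 3.58.1, DESeq2 1.42.0 and edgeR 4.0.16, under R 4.3.3. The scripts were tested on simulated counts.

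Total counts of 15847985 to 31895808 per mouse set the precision, which covers mice and counting together. The 75 pairs of mice within groups differed beyond sampling noise (ratio of chi-square to its degrees of freedom 2.99 to 59.6), so no library was counted as deposited in duplicate.

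The comparison, gene lists and tests were chosen with earlier results of these data known. Genes named were anle138b-related genes, the 10 with the smallest p in each direction, the 5, 3 and 3 with the smallest p for the differences between strata, genotypes and cohorts, and in each pathway list the gene with the smallest p. Eno1, Casp9, Masp2, Akr1e1, Miip and list members beyond these were named after their values were seen. Alternatives were DESeq2, limma-voom, RLE size factors, no filter, an adjusted p of 0.05, other covariates (Y-linked expression, lane, replicate number, none), single strata, cohorts or genotypes, and each mouse left out. Added after seeing the data were within-group principal components, choroid plexus level, lane without mouse 39 and equal weights of the strata. No mouse was left out of the reported fit. Some items are withheld and not reported here.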

Additional observations from a re-analysis of the deposited data

Results flagged for a closer look

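In 37 of 536 sets of 4 to 7 mice (6.9%), a named gene in 1 group, the highest or lowest mouse lay far from the rest of its group by Dixon's 95% criterion, where chance gives about 1 in 20. Their part in the common comparison was not tested beyond leaving out each mouse. Values are CPM.

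In pre-plaque WT mice the single values were Zfp990 0.0455 and Rhot2 36.8 and Abca7 19.5 in placebo-treated mouse 77, Per1 66.4 and Prl 2.72 in placebo-treated mouse 30, and 4731419I09Rik 0.714 and Hspa8 256 in placebo-treated mouse 37. In anle138b-treated WT mice of that age they were Prdx1 89.9, Atf4 126, Plcxd1 5.01 and App 1650 in mouse 39 and Gm16754 0.98 in mouse 83.

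In pre-plaque APPPS1ΔE9 mice they were Slc12a9 42.8 and Vgf 94.5 (placebo, mouse 71), Masp2 0.407 and Prnp 2930 (placebo, mouse 75) and Hspa8 272 (placebo, mouse 17). With anle138b they were Gm7809 0.038 and Gabarap 134 (mouse 15), Itgb2 8.77 (mouse 84) and Gm16754 0.591 (mouse 16).

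In placebo-treated post-plaque WT mice they were Gm31105 0.438 (mouse 54), B830042I05Rik 0.873 (mouse 56), Pik3cd 31.8 and Miip 21 (mouse 52), and Cyp1a1 0 and Gm13341 0.857 (mouse 55). In anle138b-treated post-plaque WT mice they were Aldoart1 0.168 (mouse 64), Rhot2 39.3 and Plcxd1 6.87 (mouse 63), Slc12a9 41.8 (mouse 60) and Gm16754 1.5 (mouse 62). In anle138b-treated post-plaque APPPS1ΔE9 mice they were Tcof1 23.4 (replicate 7), Steap4 0.605 and Crh 0.283 (mouse 99), Stat2 36.3 (mouse 97) and Gm16754 2.73 (mouse 59). For Gm16754 a mouse stood apart in all 4 anle138b-treated groups and in 0 of the 4 placebo-treated groups.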

How the results depend on the processing

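The number of genes with a common anle138b effect was 2 in the reported fit and stayed at 2, with Gm5855 and Eno1b called, with an adjusted p of 0.05, RLE size factors, Y-linked expression as a covariate, cohort and genotype as additive covariates, choroid plexus level as a covariate, and without the post-plaque WT stratum. It was 8 without the filter on low counts (36026 genes tested), 6 with the first 2 within-group principal components as covariates and 40 with stratum by lane as covariate. The lane fit without mouse 39 gave 2, which were Gh and Prl. The count was 1 (Gm5855) without the post-plaque APPPS1ΔE9 stratum, 1 (Gm13340) with limma-voom, and 0 with DESeq2, no covariate, equal weights of the strata, without the pre-plaque WT stratum (which holds the 4 mice with conflicting genotype labels), without the pre-plaque APPPS1ΔE9 stratum, and in fits of pre-plaque, post-plaque, WT or APPPS1ΔE9 mice only. Fewer mice enter the last 6. In each of these except the fit of pre-plaque mice, too few mice with high Gm5855 and Eno1b remained to meet the filter on low counts. Neither gene was tested there, so the 0 says nothing about them. For the other settings the cause was not tested. With each mouse left out in turn the count lay between 1 (pre-plaque mice 15, 84, 17, 71, 74 or 75 left out) and 4 (mouse 31). It was 3 without mouse 87, 16, 27, 33, 41 or 83, and 2 in 25 of 38 fits. Gm5855 was called in 38 of the 38 (log2 fold change 4.22 to 4.78) and Eno1b in 29 (3.88 to 4.63).

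For the difference between strata DESeq2 gave 18 genes against 0, and leaving out a mouse gave 0 to 16, with 16 without mouse 33, 14 without mouse 83, 6 without mouse 39, 4 without mouse 75, and 1 without mouse 58, 54, 56, 16 or 27 or replicate 6 of the anle138b-treated post-plaque APPPS1ΔE9 mice. For the difference between cohorts DESeq2 gave 5, and leaving out a mouse gave 0 to 0. For the difference between genotypes every alternative gave 0, also with each mouse left out (0 to 0).

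The replicate numbers of the titles do not pair mice: of 18 same-numbered pairs 9 correlated above 0.1 (range −0.67 to 0.684, mean 0.1, against −0.02 over 74 other pairs), and 5 mice correlated best with their own number. With the number as replicate block the common count was 0, the strata count 2 (Gh and Prl), the cohort count 1 (Gh) and the genotype count 0.

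Of 3917 values of 66 named genes under alternatives, 24 were no longer past the threshold, 6 passed newly and 8 reversed. The reversed were B830042I05Rik at 0.01 and Man2b1 at 0.00 (stratum by lane), Man2b1 at 0.01 and Psma6 at −0.02 (lane without mouse 39), and, in post-plaque mice only, Man2b1 at 0.02, 4731419I09Rik at 0.09, Masp2 at −0.07 and Miip at 0.00. A further 115 sign changes concerned 24 genes with an unadjusted p of 0.05 or more. The mean in place of the median moved the 45 lists by less than the spread between mice, with another sign in 4. Genes under 1 CPM have intervals too wide to show a small shared change.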

Other observations

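Further genes that had an unadjusted p under 0.05 and the same direction in both genotypes of the pre-plaque group lay outside chromosome 4. Vipr2, a receptor of vasoactive intestinal peptide, had log2 fold changes of −1.09 in WT and −0.68 in APPPS1ΔE9 mice of that age, and 0.14 and −0.34 in the post-plaque strata. Gm13340, a nuclear copy of the mitochondrial gene mt-Co1, was at 0.96 and 0.63 in the pre-plaque strata and at 0.37 and −0.17 in the post-plaque strata. In pre-plaque WT mice Gm13340 measured 6.49, 20.1, 8.17 and 7.77 CPM with anle138b, the 20.1 CPM being mouse 39, against 5.23 to 5.74 CPM with placebo. In APPPS1ΔE9 mice of that age, where lane and treatment cannot be told apart, Gm13340 measured 9.03 to 10.7 CPM against 5.87 to 7.21 CPM. How many of all tested genes separate by treatment in this way was not counted, so nothing is read from these ranges. mt-Co1 itself was at 0.00 in pre-plaque WT and at 0.20 in pre-plaque APPPS1ΔE9 mice.

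Tnfrsf8 and Angptl7, which lie in the same interval of chromosome 4 as Casp9 and Eno1, were looked at after the values of the neighbouring genes had been seen. Tnfrsf8, a receptor of activated lymphocytes, measured 0.92, 1.59, 0.836 and 2.53 CPM in anle138b-treated pre-plaque WT mice 33, 39, 41 and 83 and 0.873, 1.93, 2.06 and 1.04 CPM in APPPS1ΔE9 mice 15, 16, 27 and 84. Angptl7, a secreted angiopoietin-like protein, measured 0.962, 0.284, 1.08 and 0.302 CPM and 1.06, 0.28, 0.257 and 0.755 CPM in the same mice. Neither passed in the common fit (unadjusted p of 0.17 and 0.144).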
